A study of Mus musculus with 9 samples.

Results

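Cdkn1a, Bax, Aifm2, Tigar and Mcl1 are genes of the p53 response and of the control of apoptosis, and their mRNA was followed in mouse liver under short dietary restriction. They were chosen by symbol and not by a rule on measured values, although earlier results of these data were known. All 5 were found among the 5608 genes of the expression table. The study asked how the liver responds to intermittent fasting and to a fasting-mimicking diet compared with free feeding. The livers came from wild type (wt) C57BL/6 J mice in 3 groups of 3 mice, with 1 library per mouse. Mice in the FED group had free access to standard diet. Mice in the IF group had food withheld for 24 h 2 times per week, with free refeeding in between. Mice in the FMD group received a fasting-mimicking diet, a low-calorie, low-protein and fat-rich food, for 3 days. FED and IF libraries carry the replicate numbers 1, 2 and 3, and FMD libraries the numbers 1, 2 and 4. Age and sex are not given in the sources used here.

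p53 is a transcription factor that is held at a low level in unstressed cells and is stabilised by DNA damage, nutrient shortage and other stress. It switches on genes that stop the cell cycle, that change metabolism or that start cell death, and many of these genes also answer to other factors, among them the FOXO proteins that are active in fasting liver. Cdkn1a encodes p21, an inhibitor of cyclin-dependent kinases, and Tigar encodes a phosphatase that lowers fructose-2,6-bisphosphate and so slows glycolysis. Bax encodes the protein that opens the outer mitochondrial membrane in apoptosis, Mcl1 encodes a short-lived BCL2 family protein that keeps it closed, and Aifm2 encodes an oxidoreductase, also known as FSP1, that protects membranes from lipid peroxidation and was first described as an apoptosis factor. Of these genes Mcl1 is the one not usually counted as a p53 target, and p53 itself (Trp53) and its targets Mdm2, Bbc3 and Bak1 were not analysed here.

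The values are TPM, a measure of transcript abundance per length of transcript that the authors scaled to the total of each library. The table covers a part of each library, and its TPM sum to between 26.3% and 29.3% of the full TPM total in FED, 32.9% and 34.9% in IF and 34.9% and 43% in FMD, so depth is unknown and no counting error can be given. Most genes of the table were higher under both diets. Against FED the median change of the 4665 genes tested was 0.24 in IF and 0.48 in FMD on the log2 scale, and FMD lay 0.24 above IF. FMD replicate 1 stood apart, with the highest value of the 9 libraries in 65.8% of these genes. The tests were therefore run on the deposited values and again on scaled values, which were brought to a common level by a factor per library, the median ratio of its genes to their geometric mean over the libraries. A gene was called when its adjusted p from limma was under 0.05 and its change was over 1.5-fold on the log2(TPM + 1) scale. None of the 10 hepatocyte markers on a list of cell type markers is among the genes of the table, so the tissue label could not be checked with it. In whole liver, fewer cells of a type and less RNA per cell cannot be told apart.

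Cdkn1a (NCBI gene 12575) rose under both diets. Its level was 2.48, 1.54 and 1.49 TPM in the FED livers, 16.1, 15.3 and 12.4 TPM in the IF livers and 184, 49.1 and 8.68 TPM in FMD replicates 1, 2 and 4. Every fasted or FMD liver lay above every FED liver, the IF livers lay close together, and the FMD livers ranged from below all IF livers to far above them. The mean was 1.84 TPM ± 0.558 (SD, n = 3) in FED livers. It was 14.6 TPM ± 1.97 (SD, n = 3) under IF and 80.6 TPM ± 91.9 (SD, n = 3) under FMD, which makes the IF mean 7.94 times and the FMD mean 43.9 times the FED mean. The spread in FMD was as large as the mean, so the second ratio rests mainly on replicate 1. On the log2 scale the change was 2.47 (SE 0.77, adjusted p = 0.0409) for IF vs FED and 4.0 (SE 0.77, adjusted p = 0.00197) for FMD vs FED.

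The Cdkn1a rise in FMD was called under each of the 26 alternative settings. After scaling it was 3.54 (adjusted p = 0.00821), and without FMD replicate 1 it was 2.97 (adjusted p = 0.00125). The IF rise had the same sign throughout, but its call changed with the libraries in the fit. In a fit of the IF and FED livers alone its adjusted p was 1.3e-05, and after scaling it was 0.0655. Leaving out any 1 FED or IF library, or FMD replicate 2, gave changes from 2.38 to 2.62 with an adjusted p from 0.0556 to 0.117, whereas without FMD replicate 1 the adjusted p was 0.00287 and without FMD replicate 4 it was 0.00167. The difference between the diets was not called, at 1.53 on the log2 scale (95% confidence interval -0.17 to 3.23, adjusted p = 0.174). Without FMD replicate 4 it was 2.64 (adjusted p = 0.00423), and without FMD replicate 1 it was 0.51 (adjusted p = 0.556).

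The sequences before the transcription start are shown for the 3 genes of the set on the lists of p53 targets in cell cycle arrest and apoptosis, of which Cdkn1a and Aifm2 were called and Bax was not. They are the 250 bases upstream of each RefSeq start on build GRCm38.p6, which is not the mm39 build named for the deposited values. A RefSeq promoter was matched for all 5 genes, and Cdkn1a has starts at 2 places, 2790 bases apart. Capitals mark matches on either strand to a p53 binding site, to the GC box GGGCGG bound by SP family factors, and to TATAA.
Cdkn1a, first start, chr17:29090729-29090978, plus strand: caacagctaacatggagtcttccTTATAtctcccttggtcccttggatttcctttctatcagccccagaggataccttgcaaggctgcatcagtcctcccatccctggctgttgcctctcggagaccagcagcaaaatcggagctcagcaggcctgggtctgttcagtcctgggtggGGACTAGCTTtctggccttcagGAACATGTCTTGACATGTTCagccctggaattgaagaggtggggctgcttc
Cdkn1a, second start, chr17:29093519-29093768, plus strand: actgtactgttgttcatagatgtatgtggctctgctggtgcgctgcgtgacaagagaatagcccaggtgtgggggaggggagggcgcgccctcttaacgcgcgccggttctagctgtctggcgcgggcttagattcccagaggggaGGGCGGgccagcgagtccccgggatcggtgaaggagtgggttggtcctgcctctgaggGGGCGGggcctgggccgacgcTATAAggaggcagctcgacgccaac
Bax, chr7:45466899-45467148, minus strand: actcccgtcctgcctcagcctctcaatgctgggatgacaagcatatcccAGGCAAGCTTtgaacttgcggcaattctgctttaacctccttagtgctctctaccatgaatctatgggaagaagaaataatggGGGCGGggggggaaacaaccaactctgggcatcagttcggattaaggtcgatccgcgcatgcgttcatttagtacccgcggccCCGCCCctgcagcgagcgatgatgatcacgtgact
Aifm2, chr10:61720399-61720648, plus strand: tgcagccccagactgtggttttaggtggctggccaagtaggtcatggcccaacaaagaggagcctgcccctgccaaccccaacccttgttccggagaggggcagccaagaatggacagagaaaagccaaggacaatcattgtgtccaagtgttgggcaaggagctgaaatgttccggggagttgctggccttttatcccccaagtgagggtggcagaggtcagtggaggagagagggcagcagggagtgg

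The window before the first Cdkn1a start holds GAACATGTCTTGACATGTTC between bases -51 and -32, which differs by 1 base from the 20-base p53 site of a pair of adjacent 10-base half-sites. A match this close was found in 19 of 32851 RefSeq promoter windows of the same length (0.0578%). It overlaps 1 of the 2 half-sites in that window, the other being GGACTAGCTT at -73. The Bax window has a single half-site, AGGCAAGCTT at -201, and a half-site occurs in 7.13% of all windows. The second Cdkn1a window has GC boxes at -104 and -46 and TATAA at -25, motifs found in 32.7% and 22.8% of windows, and the first has TATAA on the opposite strand at -227. The Aifm2 window has no match to any of the motifs searched, which says only that these letters are absent from these 250 bases. Also searched, on both strands, were CCAAT, the cAMP response element core TGACG and the E-box CACGTG, which the Bax window holds at -9 (6.02% of windows). The windows of Tigar and Mcl1 have no p53 half-site either. Tigar has 2 GC boxes, 3 CCAAT boxes (33.8% of windows) and 1 TGACG (17.8% of windows), and Mcl1 has 1 GC box.

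Aifm2 (NCBI gene 71361) rose to about the same level under both diets. It measured 9.75, 10.3 and 11.2 TPM in FED, 34.1, 32.2 and 27.2 TPM in IF and 37.1, 38.1 and 29.1 TPM in FMD. The FED livers lay well below the others, and the IF and FMD livers overlapped. The mean rose from 10.4 TPM ± 0.712 (SD, n = 3) in FED to 31.2 ± 3.57 (SD, n = 3) in IF, 3.0 times as high, and to 34.8 ± 4.91 (SD, n = 3) in FMD, 3.34 times as high. The log2 change was 1.49 (SE 0.14, adjusted p = 1.6e-04) for IF and 1.64 (SE 0.14, adjusted p = 2.5e-05) for FMD, and both calls held under each of the 26 alternatives, including scaling, where they were 1.23 and 1.12. The diets differed by 0.15 on the log2 scale (95% confidence interval -0.15 to 0.45, adjusted p = 0.424), and after scaling the sign turned (-0.12). Unlike Cdkn1a, Aifm2 was not unusual in FMD replicate 1.

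Tigar (NCBI gene 319801) was the lowest of the 5 genes in the IF and FMD groups and changed little. It was at 2.24, 2.94 and 2.87 TPM in FED, 3.98, 4.04 and 3.27 TPM in IF and 4.49, 3.45 and 4.71 TPM in FMD. All IF and FMD livers lay above the FED livers, but by a small margin, and the IF and FMD livers overlapped. The change was 0.37 (SE 0.14, adjusted p = 0.0777) for IF vs FED and 0.50 (SE 0.14, adjusted p = 0.0110) for FMD vs FED, the second below the 1.5-fold limit, and neither was called. Without FMD replicate 2 the FMD change was 0.61 (adjusted p = 0.00626), and with a pseudocount of 0.1 it was 0.63 (adjusted p = 0.0104), both past the limit. The median change of all genes was 0.48 in FMD and 0.24 in IF, and after scaling the Tigar change was 0.08 in FMD (adjusted p = 0.728) and 0.16 in IF (adjusted p = 0.444). The diets differed by 0.13 (95% confidence interval -0.19 to 0.44, adjusted p = 0.506), and by -0.09 after scaling.

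Bax (NCBI gene 12028) did not pass the test in any comparison. It was at 30.7, 29.9 and 25.0 TPM in FED, 27.6, 25.4 and 27.8 TPM in IF and 95.8, 27.5 and 38.7 TPM in FMD replicates 1, 2 and 4. The FED and IF livers covered the same range, FMD replicate 2 lay inside it, and FMD replicate 1 lay far above. The IF mean of 26.9 TPM ± 1.34 (SD, n = 3) was 0.943 times the FED mean of 28.6 ± 3.08 (SD, n = 3), with a log2 difference of -0.08 (95% confidence interval -0.83 to 0.68, adjusted p = 0.876). This interval uses a spread shared with the FMD livers. In a fit of the IF and FED livers alone the SE was 0.09 in place of 0.34 (adjusted p = 0.493). In FMD the mean was 54.0 TPM ± 36.7 (SD, n = 3). The log2 difference was 0.70 (95% confidence interval -0.06 to 1.46, adjusted p = 0.0891) against FED and 0.78 (adjusted p = 0.134) against IF. Without FMD replicate 1 these were 0.19 (adjusted p = 0.266) and 0.27 (adjusted p = 0.260), and without FMD replicate 2 they were 1.07 (adjusted p = 0.0134) and 1.15 (adjusted p = 0.0462), both called. On scaled values the difference from FED was -0.35 (adjusted p = 0.456) in IF, where all IF livers then lay below all FED livers, and 0.16 (adjusted p = 0.735) in FMD, and FMD vs IF was 0.51 (adjusted p = 0.307). Without FMD replicate 2 the scaled FMD values were 0.49 (adjusted p = 0.169) against FED and 0.84 (adjusted p = 0.0671) against IF, neither called. Without FMD replicate 1 the scaled FMD difference from FED turned to -0.23 (adjusted p = 0.340).

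Mcl1 (NCBI gene 17210) was the only gene of the 5 with a called difference between the diets. Its level was 37.2, 37.6 and 40.2 TPM in FED, 31.5, 33.5 and 31.4 TPM in IF and 65.3, 47.0 and 39.8 TPM in FMD. All IF livers lay below all FED livers, all FMD livers lay above all IF livers, and FMD replicate 4 fell within the FED range. Mean Mcl1 was 38.3 TPM ± 1.60 (SD, n = 3) with free feeding, 32.2 TPM ± 1.18 (SD, n = 3) with IF and 50.7 TPM ± 13.1 (SD, n = 3) with FMD. Neither diet differed from FED by the rule, with log2 differences of -0.25 (adjusted p = 0.271) for IF and 0.37 (adjusted p = 0.0608) for FMD. In a fit of the IF and FED livers alone the IF difference had an adjusted p of 0.0179 and was still under the 1.5-fold limit. The FMD level was 1.58 times the IF level, a log2 change of 0.61 (SE 0.16, adjusted p = 0.0452).

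This Mcl1 call was close to both limits. After scaling the difference was 0.35 (adjusted p = 0.0742), the FMD vs FED difference turned to -0.17 (adjusted p = 0.222), and the IF vs FED difference became -0.52 (adjusted p = 0.00774), still under the 1.5-fold limit. Without FMD replicate 1 the difference between the diets was 0.42 (adjusted p = 0.0374), below the fold limit. Leaving out any 1 FED or IF library, or FMD replicate 2, gave 0.60 to 0.65 with an adjusted p from 0.0524 to 0.154. Without FMD replicate 4 it was 0.77 (adjusted p = 0.00685).

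**Figure D1:**
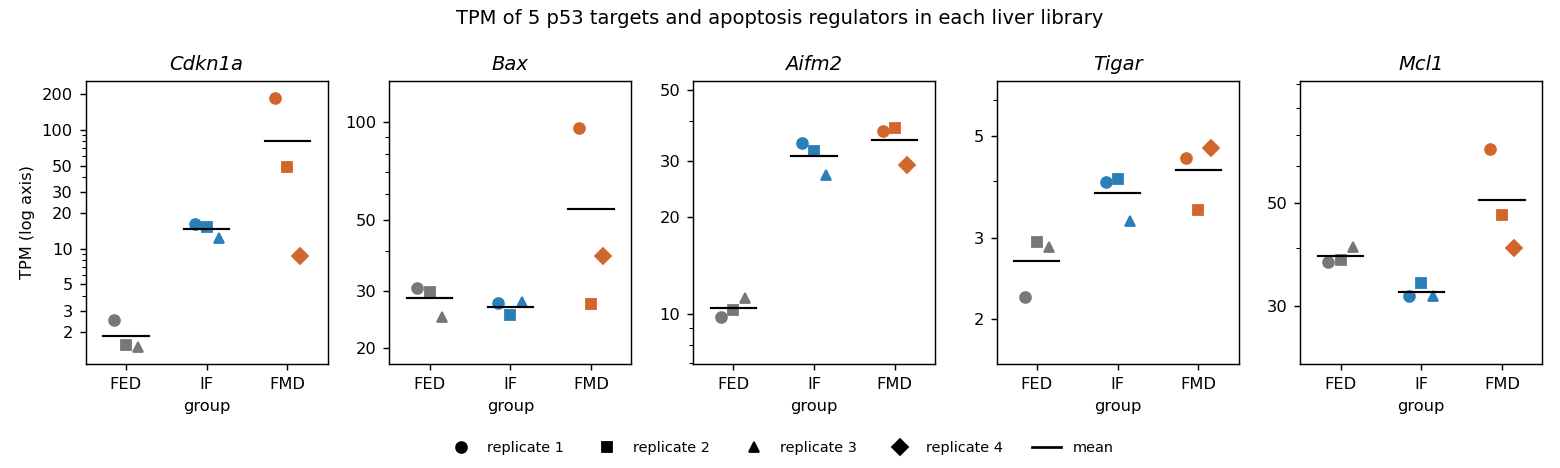
TPM of each gene in each liver library on a log axis with its own range per gene, by group, with the marker showing the replicate number and the bar the group mean (n = 3). Cdkn1a and Aifm2 lie higher in all IF and FMD livers than in FED, and FMD replicate 1 is at 184 TPM for Cdkn1a and 95.8 TPM for Bax.

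Side by side, the genes of the set did not move as 1 group. In IF vs FED 2 of the 5 were called, Cdkn1a and Aifm2, both higher, where 10.3% of all genes tested were called higher and 1.59% lower. In FMD vs FED the same 2 were called higher, against 35.5% of all genes called higher and 1.59% lower. In FMD vs IF Mcl1 was called higher, against 4.67% called higher and 0.472% lower. On scaled values Aifm2 alone was called in IF, Cdkn1a and Aifm2 in FMD vs FED and none in FMD vs IF, where 7.14%, 11.1% and 2.23% of all genes were called in either direction. The groups did not overlap for 4 of the 5 genes in IF vs FED, 3 in FMD vs FED and 1 in FMD vs IF, beside 60.6%, 70.7% and 36.7% of all genes. IF vs FED and FMD vs FED share the FED livers, so the 2 sets of calls are not independent.

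**Figure D2:**
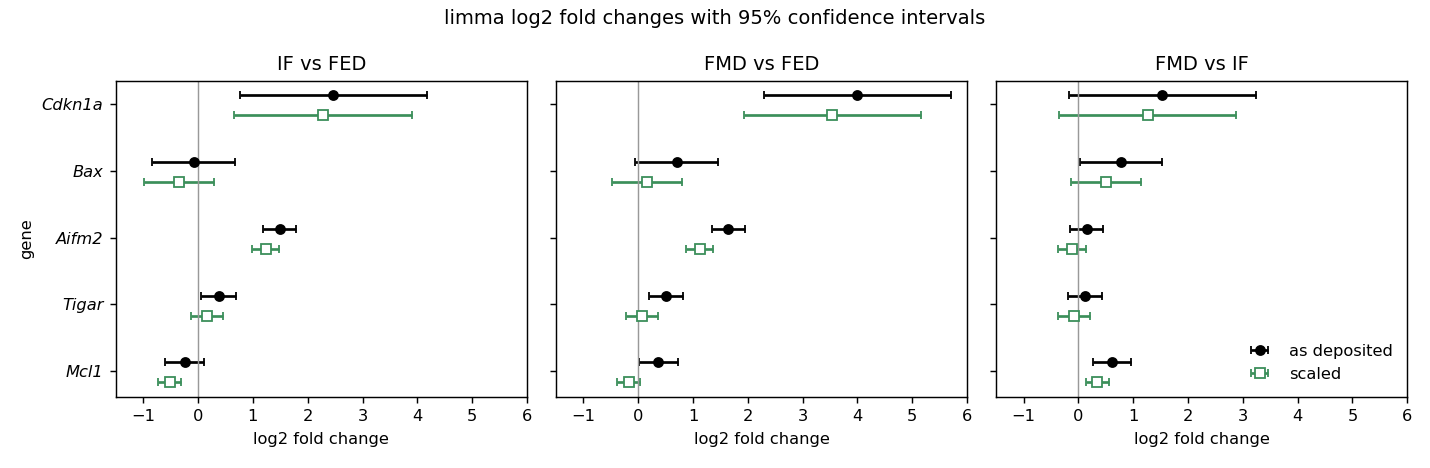
Log2 fold change of each gene in the 3 comparisons, with 95% confidence intervals from limma, on deposited values (filled circles) and scaled values (open squares). Cdkn1a at 4.0 and Aifm2 at 1.64 lie above 0 in FMD vs FED on both scales, and the interval of Cdkn1a is the widest of the 5.

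The order of levels also changed between the groups, which TPM allows to be compared since it is a value per length. In FED the order of the means was Mcl1, Bax, Aifm2, Tigar and Cdkn1a, with Tigar at 2.68 TPM ± 0.386 (SD, n = 3) and Cdkn1a partly overlapping, since FED replicate 1 had 2.48 TPM of Cdkn1a and 2.24 TPM of Tigar. In IF it was Mcl1, Aifm2, Bax, Cdkn1a and Tigar, where Aifm2 overlapped with both Mcl1 and Bax. In FMD the mean of Cdkn1a was the highest, but its values lay above those of Mcl1 in replicates 1 and 2 and below all other genes but Tigar in replicate 4.

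Variation among the FMD livers separated the set further. The value of log2(TPM + 1) in FMD replicate 1 exceeded the mean of the other FMD livers by 3.07 for Cdkn1a and 1.53 for Bax, with a median of 0.30 over all genes tested. A gap at least as large was found in 0.129% of genes for Cdkn1a and 1.46% for Bax. For Mcl1 the gap was 0.58 (19.7% of genes), for Aifm2 0.15 (69.1%) and for Tigar 0.12 (72.0%), so these genes lay within the bulk of the distribution. Trp53inp1, which encodes a p53-induced nuclear protein, had a gap of 1.4 (1.71% of genes). The same liver had 64.0 TPM of Cd68, the macrophage marker present in the table, against 12.2 and 5.75 TPM in the other FMD livers, 6.35 to 10.4 TPM in FED and 3.14 to 5.99 TPM in IF. Cd68 is 1 of 10 macrophage markers on the list and the others were not analysed here, and its part in the Cdkn1a and Bax values was not tested.

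**Figure D3:**
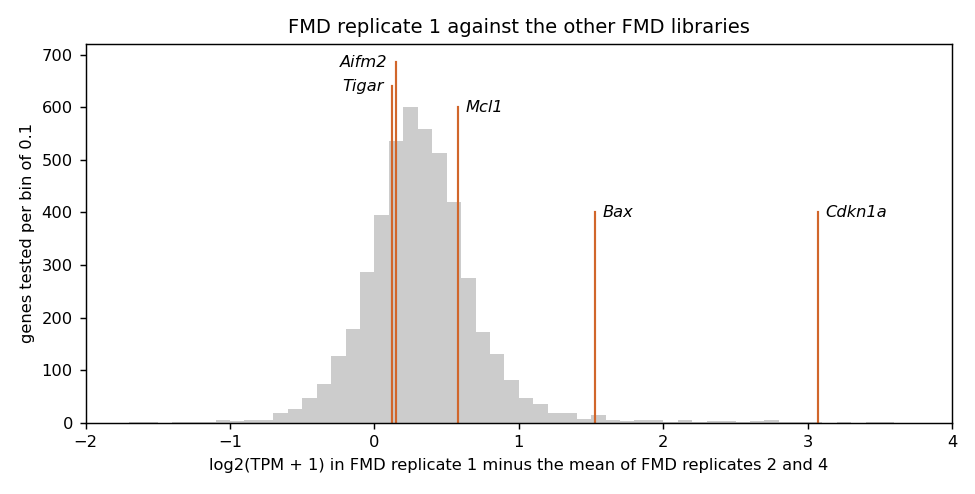
Number of genes tested by their gap in log2(TPM + 1) between FMD replicate 1 and the mean of FMD replicates 2 and 4, with vertical lines at the 5 genes. Aifm2, Tigar and Mcl1 fall within the bulk of the genes, Bax lies at 1.53 and Cdkn1a at 3.07.

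The other genes of these pathways were taken from 14 lists of 199 genes, of which 101 are in the table and 88 were tested. In IF vs FED 12 of the 88 were called higher and 1 lower, beside 10.3% and 1.59% of all genes tested, with a median log2 fold change of 0.29 against 0.24 for all genes. In FMD vs FED 37 were called higher, beside 35.5% of all genes, and none lower (median 0.51 against 0.48). In FMD vs IF 5 were called higher, beside 4.67% of all genes, and none lower (median 0.27 against 0.24). After scaling these counts were 7 higher and 2 lower, 12 higher and 5 lower, and 3 higher and 1 lower. Beside them, 7.14%, 11.1% and 2.23% of all genes were called in either direction. Each of the medians on deposited values lay near that of all genes.

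On the list of regulators of p53, 15 genes were tested, among them genes that p53 itself induces, such as Trp53inp1. None was called in IF vs FED or FMD vs IF. In FMD vs FED 7 were called higher, beside 35.5% of all genes tested, and none of them after scaling. The smallest adjusted p belonged to Sirt1, a deacetylase that acts on p53, with a log2 change of 0.62 (adjusted p = 0.00146), followed by the ribosomal proteins Rpl5 at 0.94 and Rpl11 at 0.80, which bind MDM2. Trp53inp1 was at 20.1, 14.4 and 17.3 TPM in FED, 20.8, 21.2 and 24.6 TPM in IF and 74.3, 31.2 and 24.3 TPM in FMD, a called rise of 1.12 in FMD (adjusted p = 0.0116) that was 0.59 and not called after scaling (adjusted p = 0.134).

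Among 7 tested p53 targets in cell cycle arrest, 3 were called higher under each diet, Cdkn1a and the stress sensors Gadd45b and Gadd45g. Gadd45b was at 0.71, 0.96 and 1.09 TPM in FED, 7.81, 6.82 and 4.88 TPM in IF and 19.6, 31.8 and 18.8 TPM in FMD, so its 3 groups did not overlap. Its log2 change was 1.95 after IF (adjusted p = 3.2e-04) and 3.63 after FMD (adjusted p = 3.1e-06), and the diets differed by 1.68 (adjusted p = 0.00378). Gadd45g changed by 2.68 (adjusted p = 4.4e-04) and 3.64 (adjusted p = 3.3e-05). The remaining targets of the list were not called on deposited values, and Plk2, a polo-like kinase, was called lower in FMD vs FED after scaling (-0.89).

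Besides Cdkn1a, the table lists CDK inhibitors of the INK4 family only, Cdkn2b and Cdkn2d. Cdkn2b (p15) lay between 0.11 and 0.27 TPM in FED, 0.13 and 0.19 TPM in IF and 0.46 and 0.60 TPM in FMD, below the filter of 1 TPM, and was not tested. Cdkn2d (p19) averaged 2.35 TPM ± 0.0987 (SD, n = 3) with free feeding, 3.15 TPM ± 0.309 (SD, n = 3) with IF and 3.46 TPM ± 0.179 (SD, n = 3) with FMD, and was not called in any comparison. Of 5 tested cyclins and kinases that p21 binds, Ccnd3 was called higher in IF at 0.72 (adjusted p = 0.0110) and Ccnd1, which encodes cyclin D1, lower at -1.42 (adjusted p = 0.0282). Of all genes tested, 10.3% were called higher in IF and 1.59% lower. After scaling Ccnd1 was still called and Ccnd3 was not (0.45, adjusted p = 0.0735). In FMD Ccnd3 was called higher at 0.93 and the kinase Cdk4 at 0.86, beside 35.5% of all genes, and neither of them after scaling.

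Of 8 tested p53 targets in apoptosis, Aifm2 and Ei24, an endoplasmic reticulum protein of autophagy, were called higher in IF, and Aifm2, Ei24 and the BH3-only gene Bid in FMD. Of all genes tested, 10.3% were called higher in IF and 35.5% in FMD. Ei24 changed by 0.96 (adjusted p = 0.00472) and 1.13 (adjusted p = 7.8e-04), the second not called after scaling. Bid was just past the fold limit at 0.59 in FMD, and after scaling it was 0.09 (adjusted p = 0.612) and not called. The other 5, Bax among them, were not called, and after scaling Steap3, an iron reductase, was called lower in FMD vs FED (-0.81). In the metabolism, redox and repair targets, to which Tigar belongs, 1 of 13 was called higher in IF and 5 in FMD, beside the same 10.3% and 35.5%. The gene called in IF was the coenzyme A synthesis gene Pank1 at 0.83 (0.56 and not called after scaling). Those called in FMD were led by the DNA repair gene Xpc at 0.77 (adjusted p = 6.2e-04). Sesn2, an inhibitor of mTORC1 signalling, rose by 1.42 in FMD (adjusted p = 0.00280) and was the only 1 of these 5 still called higher after scaling, when Aldh4a1 (-0.99) and Gls2 (-0.75) were called lower.

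**Figure D4:**
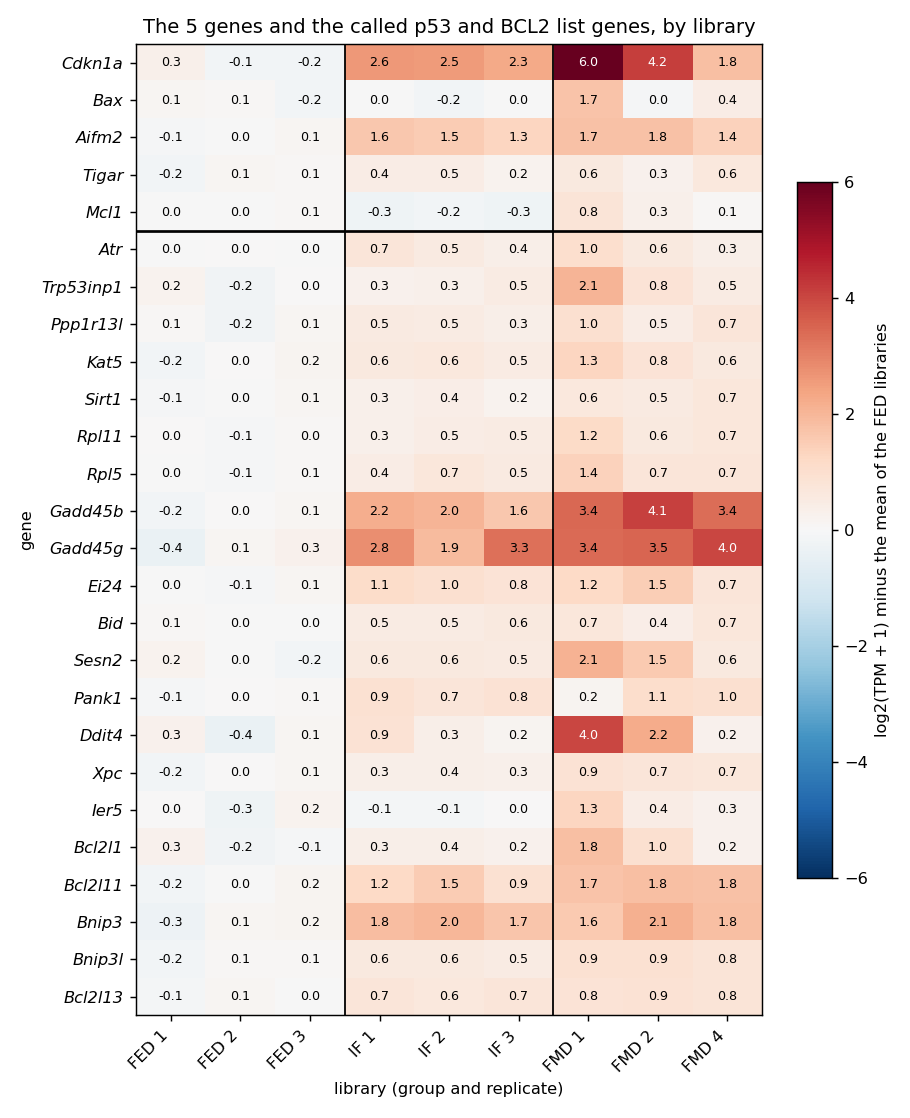
Value of log2(TPM + 1) in each library minus the mean of the FED libraries, for the 5 genes (above the line) and 21 further genes of the p53 and BCL2 family lists that were called in any comparison. Cdkn1a reaches 6.0 in FMD replicate 1 and 1.8 in FMD replicate 4, while Aifm2 stays between 1.3 and 1.8 in all IF and FMD livers.

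In the BCL2 family, where Bax and Mcl1 belong, 6 BH3-only and related genes were tested. Of these, 3 were called higher in IF and 5 in FMD, beside 10.3% and 35.5% of all genes tested, and 2 of them, Bcl2l11 and Bnip3, were also called after scaling under both diets. Bcl2l11, which encodes the death-promoting protein BIM, was at 0.70, 0.88 and 1.15 TPM in FED, 3.38, 4.45 and 2.60 TPM in IF and 5.19, 5.55 and 5.47 TPM in FMD. Its 3 groups did not overlap, and its log2 change was 1.21 after IF (adjusted p = 7.3e-04) and 1.75 after FMD (adjusted p = 4.1e-05). Bnip3, a mitophagy receptor, was at 72.1, 96.5 and 97.8 TPM in FED and between 263 and 394 TPM in all IF and FMD livers, a log2 change of 1.82 (adjusted p = 1.6e-04) and 1.84 (adjusted p = 4.6e-05). Its relatives Bnip3l (0.88 in FMD) and Bcl2l13 (0.70 in IF and 0.82 in FMD) were called on deposited values alone, and Bmf was not called.

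The second anti-apoptotic gene tested, Bcl2l1, which encodes BCL-XL, had a pattern across the FMD livers like that of Mcl1. It was at 17.2, 12.1 and 13.4 TPM in FED, 18.1, 18.4 and 16.8 TPM in IF and 50.9, 28.8 and 16.9 TPM in FMD replicates 1, 2 and 4. FMD replicate 4 lay within the FED range, as it did for Mcl1. The change was 1.0 in FMD vs FED (adjusted p = 0.0145) and 0.48, not called, after scaling. Of 3 genes tested on the list of MCL1 turnover, Ier3, an early response gene whose product binds MCL1, was called higher in FMD at 1.39 (adjusted p = 0.00898). In that comparison 35.5% of all genes tested were called higher. Downstream, none of 12 caspases, apoptosome proteins and inhibitors was called in IF and 2 in FMD, beside 10.3% and 35.5% of all genes called higher. They were Casp8 at 0.79 and Casp2 at 0.59, neither after scaling.

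Of 8 tested genes on the list of the AIF family and ferroptosis, Aifm2 among them, 2 were called higher in IF and 5 in FMD, beside 10.3% and 35.5% of all genes tested. The 5 in FMD include the transferrin receptor gene Tfrc at 0.95 (adjusted p = 0.00469), which is not itself a defence gene. After scaling only Aifm2 was called. Gpx4, which reduces lipid peroxides in parallel with the AIFM2 protein, averaged 460 TPM ± 33.8 (SD, n = 3) with free feeding, 722 TPM ± 6.56 (SD, n = 3) with IF and 928 TPM ± 173 (SD, n = 3) with FMD, a change of 0.65 (adjusted p = 0.00883) and 1.0 (adjusted p = 4.0e-04). Of 6 tested genes of hexose phosphate metabolism, Tigar among them, 1 was called, the aldolase Aldoa. It changed by 1.56 in FMD vs FED (adjusted p = 3.0e-04) and 1.27 in FMD vs IF (adjusted p = 0.0129). Of all genes, 35.5% and 4.67% were called higher in these comparisons. Of 7 tested transcription factors other than p53 with a known action on Cdkn1a, Myc was called higher in IF at 1.54 (adjusted p = 0.0320), beside 10.3% of all genes. In FMD vs FED 4 were called higher, beside 35.5% of all genes. They were led by Cebpb at 1.57 (adjusted p = 2.1e-05), with Myc at 2.37, Klf6 at 1.75 and Sp3 at 0.74. After scaling Sp3 was 0.23 (adjusted p = 0.167) and not called, while the other 3 still were. The values of Klf6 in FMD were 20.6, 7.77 and 3.59 TPM and those of Myc 23.7, 6.72 and 4.70 TPM, both in the same order of livers as Cdkn1a. Those of Cebpb were 179, 212 and 213 TPM, in the reverse order. FMD replicate 1 had the highest value of all libraries in 65.8% of the genes tested. The direction in which each factor acts on Cdkn1a was not considered.

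**Figure D5:**
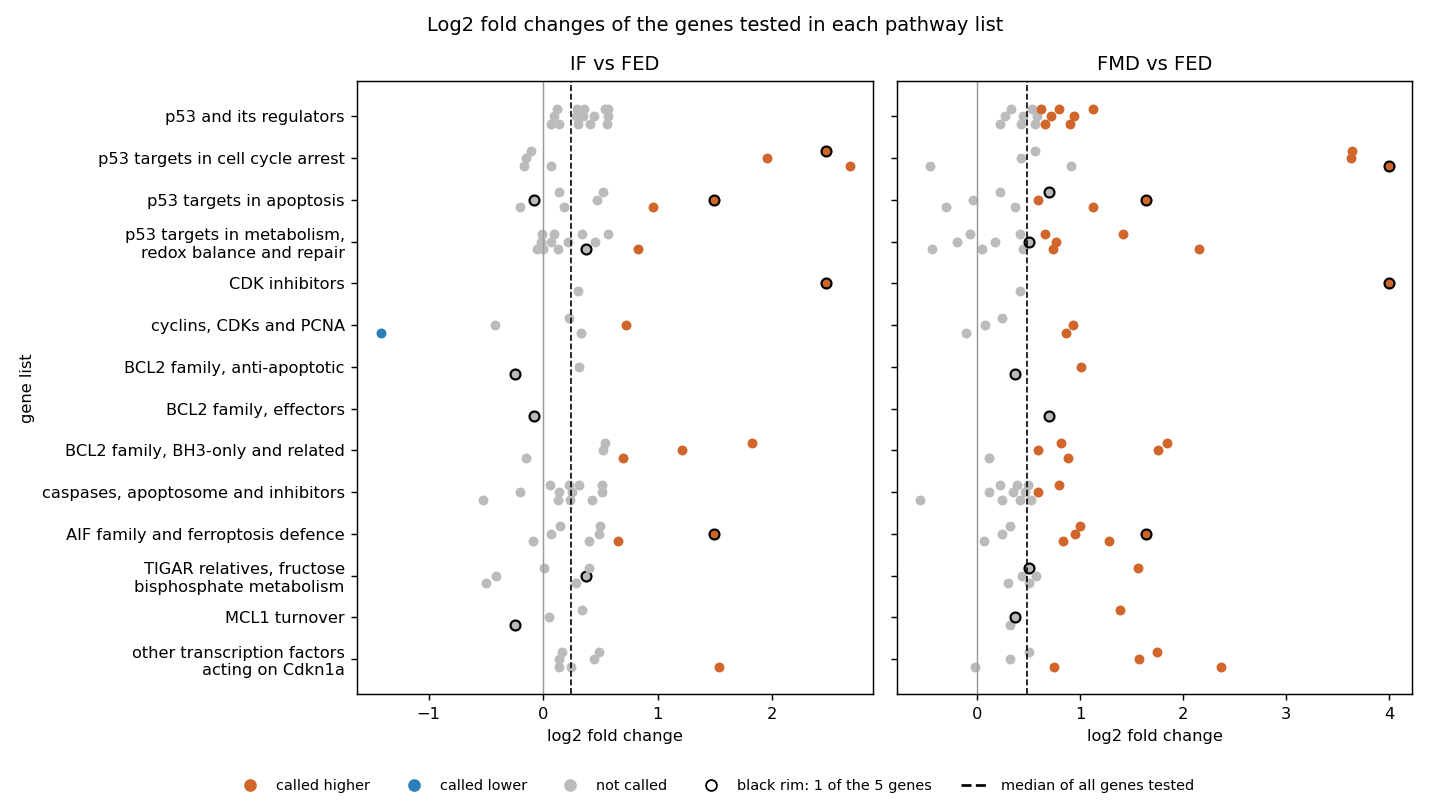
Log2 fold change of each gene tested in each of the 14 pathway lists, for IF vs FED (left) and FMD vs FED (right), coloured by call, with the dashed line at the median of all genes tested (0.24 and 0.48). Cdkn1a, Gadd45b and Gadd45g lie farthest to the right in FMD vs FED, and most other genes lie near the dashed line.

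The genes whose values followed each of the 5 most closely over the 9 libraries were ranked by Pearson's r of log2(TPM + 1), which is a description across livers that share group, library size and the shift of the listed genes. For Aifm2 they were Wbp1l (r = 0.996), Chkb (r = 0.993) and the glycerol kinase gene Gk (r = 0.993), and on scaled values r stayed at 0.985, 0.981 and 0.986. For Cdkn1a they were the respiratory chain gene Ndufs4 (r = 0.997), Git1 (r = 0.995) and the mitochondrial channel gene Vdac2 (r = 0.990), but the r of Ndufs4 was 0.01 on scaled values. Bax was followed most closely by Pfdn1 (r = 0.983), Ddit3 (r = 0.979) and E130309D02Rik (r = 0.979). Ddit3, which encodes the stress factor CHOP, was at 121 TPM in FMD replicate 1 and between 5.67 and 12.1 TPM in all other livers, and without that library its r with Bax was 0.739. Tigar was followed by Add3, Tmem18 and Asb8 (r from 0.979 to 0.981) and Mcl1 by Zdhhc21, Cxadr and Mob3a (r from 0.979 to 0.980). Of the 15 genes, 3 were again among the closest on scaled values and 5 without FMD replicate 1.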

How the data were processed

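Liver mRNA of 9 mice (3 FED, 3 IF, 3 FMD) was analysed from deposited TPM values. The authors enriched mRNA with oligo-dT, built strand-specific libraries, read them on the DNBSEQ platform and analysed them in Dr. Tom. The submitters' processing notes name mm39 and DESeq2. The aligner and annotation are not given in the sources used here. The table holds 5608 genes, 48 of them at 0 in all libraries, and 0 columns of other samples. Depth is unknown, so precision rests on 3 mice per group, grouped by label.

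Values were taken as log2(TPM + 1), which understates changes of low genes. Genes averaging 1 TPM or more (4665) were fitted over all 9 libraries with limma 3.58.1 in R 4.3.3 (lmFit, eBayes with a trend, Benjamini-Hochberg adjustment over all genes). The limits follow the study's methods. Tables, motif searches and figures used pandas 2.3.3, numpy 2.4.6 and matplotlib 3.10.9 under python 3.11.15. The fitting code was also run on simulated data with known changes. These lacked the general shift of the real values, so that run does not test the calls above.

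The genes, lists and alternatives were chosen with earlier results of these data known. Named genes are the 5 genes, further genes of the study's qPCR panels, in each list and comparison up to 3 called genes by smallest adjusted p, family relatives, and the 3 genes closest to each by correlation. Plk2, Steap3, Aldh4a1, Gls2, Cd68 and Klf6 in FMD vs FED were named after their values were seen. Alternatives were another pseudocount, other filters, scaled or quantile-normalized values, fits of 2 groups at a time, no trend, a replicate block, other limits, and each library left out.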

Additional observations from a re-analysis of the deposited data

Results flagged for a closer look

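Among the 88 listed genes tested, 5 differed between the 2 diets by the test of FMD vs IF itself, beside 4.67% of all genes called higher. The log2 fold change was 0.61 for Mcl1, 1.68 for Gadd45b, 1.27 for Aldoa, 1.61 for Klf6 and 1.13 for Cebpb, each higher in FMD. All FMD livers lay above all IF livers for each of the 5, and these groups did not overlap in 36.7% of all genes. After scaling Gadd45b, Aldoa and Cebpb were still called, and Mcl1 (adjusted p = 0.0742) and Klf6 were not.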

How the results depend on the processing

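No called difference of the 5 genes changed sign. The rises of Aifm2 in both diets and of Cdkn1a in FMD were called under every alternative run. In IF vs FED, 1 of the 5 genes was called with no filter, after scaling, after quantile normalization or at an adjusted p under 0.01. The Cdkn1a change was then 2.47 (no filter), 2.28 (scaling) and 2.28 (quantile normalization), none called. List genes called in IF vs FED were 8 with quantile normalization, 8 at an adjusted p under 0.01 and 25 with no fold limit. In FMD vs FED they were 17 after scaling, beside 11.1% of all genes, and 19 after quantile normalization. In this section the share of all genes called is given for scaled values alone, so the other counts cannot be set against it. Tigar was called in FMD vs FED at 0.63 with a pseudocount of 0.1. Uncalled differences that turned sign after scaling or quantile normalization were Mcl1 in FMD vs FED (-0.17 scaled, -0.14 quantile) and, in FMD vs IF, Aifm2 (-0.12 scaled, -0.11 quantile) and Tigar (-0.088 scaled, -0.12 quantile). On scaled values Bax in FMD vs FED also turned sign without FMD replicate 1 (-0.23). Tigar in FMD vs FED did so without FED replicate 1 (-0.011) and without FMD replicate 4 (-0.053).

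In FMD vs IF, 0 of the 5 genes were called with no filter, scaling, quantile normalization, 1 fit per pair or an adjusted p under 0.01. Mcl1 was at 0.61 with no filter and with 1 fit per pair, 0.35 scaled and 0.39 with quantile normalization, none called. List genes called were 3 with no filter, 2 with 1 fit per pair and 2 at an adjusted p under 0.01. Of the closest genes by correlation, 3 of 15 were the same on scaled values. The cause of these changes was not tested.

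Replicate numbers are shared labels and no source says that they pair the mice. The deviations of same-numbered libraries correlated from 0.0035 to 0.177, and those of differently numbered libraries from -0.202 to 0.211. A replicate block, in which FMD replicate 4 has no partner, was also tried. With it 2 of the 5 genes were called in FMD vs IF, Cdkn1a (2.54) being added to Mcl1. List genes called were then 21, with no share of all genes given for this setting.

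With each library left out in turn, on deposited and scaled values, 1 to 2 of the 5 genes were called for IF against FED, 2 to 4 for FMD against FED and 0 to 2 between the diets, and list genes called were 6 to 13, 12 to 42 and 0 to 20. Changes ranged from 2.19 to 2.62 for Cdkn1a in IF vs FED. In FMD vs FED they ranged from -0.23 to 1.07 for Bax, -0.053 to 0.61 for Tigar and -0.25 to 0.52 for Mcl1. In FMD vs IF they ranged from 0.36 to 2.64 for Cdkn1a, 0.12 to 1.15 for Bax, -0.22 to 0.27 for Aifm2, -0.21 to 0.24 for Tigar and 0.27 to 0.77 for Mcl1. Without FMD replicate 1, 5 of the closest genes were the same. Tigar has no value at a mean TPM of at least 5.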

Other observations

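The Ddit4 gene, whose product inhibits mTORC1, had a pattern across the livers like that of Cdkn1a in FMD and was named after its values were seen. It was at 4.74, 2.68 and 4.27 TPM in FED, 7.81, 5.09 and 4.36 TPM in IF and 75.5, 21.4 and 4.72 TPM in FMD replicates 1, 2 and 4. Its FMD change of 2.15 was called (adjusted p = 0.0195), and after scaling it was 1.67 and not called. Gadd45a, also named after its values were seen, was at 27.4 TPM in FMD replicate 1 and between 1.66 and 4.95 TPM in all other livers, and was not called.

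Other cell type markers in the table were few. Of 9 stellate cell and fibroblast markers 3 are listed, with a summed level from 66.6 to 93.8 TPM with free feeding, 122 to 160 TPM with IF and 107 to 217 TPM with FMD. Nearly all of this sum was Dcn, with means of 77.5 TPM in FED, 141 TPM in IF and 150 TPM in FMD. Col1a1 (means of 1.15, 0.94 and 0.91 TPM) and Pdgfrb (1.67, 1.96 and 1.63 TPM) were low and did not follow Dcn. The cholangiocyte marker Krt19 was at most 4.07 TPM, and 2 of 7 markers of dividing cells, Top2a and Ccna2, summed to at most 0.75 TPM. No marker of endothelial cells, lymphocytes, neutrophils or erythroid cells on the lists was analysed here. The part of these levels in the values of the 5 genes was not tested.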
